A study of Mus musculus with 12 samples.

Results

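The genes described here are 8 members of the ADAM family expressed in the testis, several of which encode known proteins of the sperm surface: Adam2, Adam3, Adam5, Adam18, Adam24, Adam26a, Adam30 and Adam32. They were taken by name, through their Ensembl identifiers, as 8 of the 21959 genes of the count table, and all 8 had enough counts to be among the 15682 genes tested. The RNA was polyadenylated RNA from whole testis of wild-type ICR males, ICR being an outbred stock of laboratory mice. The mice were 8 months old at the start and 9 months old at collection. One group received saline by daily gavage, and the others received blueberry extract by the same route at 50, 100 or 200 mg/kg per day, with 3 libraries in each of the 4 groups. The saline mice stood as the model of natural reproductive ageing, and no younger mice are among the libraries analysed here. The title of the study asks whether the extract improves sperm motility in ageing mice by easing inflammation.

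ADAM proteins have a metalloprotease-like domain, a disintegrin domain and, in most cases, a single membrane anchor. In mouse spermatids several of them are made as precursors, fold and pair with the help of chaperones of the endoplasmic reticulum, and are cut as sperm mature in the testis and epididymis. ADAM2 (fertilin beta) and ADAM3 (cyritestin) are known from knockout mice to be needed for sperm to pass the uterotubal junction and to bind the coat of the egg, and loss of several chaperones or partner proteins removes ADAM3 from sperm.

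The 8 genes fall into an enzyme-type and a non-enzyme class, and the stretch of coding sequence that aligns with the zinc-binding motif of metalloproteinases shows it. It is printed because it is the clearest feature that divides the members and was not used to choose them. Capitals mark the codons aligned with the 3 zinc-binding histidines and with the catalytic glutamate, each sequence is 33 bases read 5′ to 3′ on the coding strand, and all come from GENCODE M21 transcripts on GRCm38.
Adam24: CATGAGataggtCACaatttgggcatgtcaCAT
Adam26a: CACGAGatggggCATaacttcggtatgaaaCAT
Adam30: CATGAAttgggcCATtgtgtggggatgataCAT
Adam2: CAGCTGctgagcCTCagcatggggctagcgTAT
Adam3: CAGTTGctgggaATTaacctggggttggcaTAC
Adam5: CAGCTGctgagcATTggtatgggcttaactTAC
Adam18: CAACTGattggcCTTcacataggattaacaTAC
Adam32: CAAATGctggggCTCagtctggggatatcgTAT

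The first 3 sequences hold all 3 histidine codons and the glutamate codon, so 3 of the 8 genes carry the whole motif. The other 5 hold 0 of the 3 histidine codons and no glutamate codon at these places. The stretches lie on the plus strand at chr8:40680518-40680550 (Adam24) and chr3:98161861-98161893 (Adam30). They lie on the minus strand at chr8:43569435-43569467 (Adam26a), chr14:66053841-66053873 (Adam2), chr8:24707418-24707450 (Adam3), chr8:24806449-24806481 (Adam5), chr8:24647848-24647880 (Adam18) and chr8:24901501-24901533 (Adam32).

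The same division appears in the gene structures. The 3 genes with the motif have 1 exon (Adam30) or 2 exons (Adam24 and Adam26a) in the transcript used, while Adam2 and Adam5 have 21, Adam3 and Adam32 have 22 and Adam18 has 20. Coding sequences were 41.0 to 62.6% identical between members, with a median of 44.8% over the 28 pairs, and the most alike were Adam24 and Adam26a. Adam3 and Adam18 were next at 53.6%.

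Of the 8 genes, 6 lie on chromosome 8. Adam18 (ENSMUSG00000031552, chr8:24602246-24674755), Adam3 (ENSMUSG00000031553, chr8:24677225-24725852), Adam5 (ENSMUSG00000031554, chr8:24727093-24824369) and Adam32 (ENSMUSG00000037437, chr8:24836140-24948804) follow each other on the minus strand. With Adam9, a widely expressed sheddase that is no member, they fill 415 kb, and the gaps between neighbours run from 806 to 11770 bases. Adam24 (ENSMUSG00000046723, plus strand, chr8:40675077-40682199) and Adam26a (ENSMUSG00000048516, minus strand, chr8:43568278-43576707) lie in a second stretch of 3035 kb that holds 8 ADAM genes. Adam2 (ENSMUSG00000022039) lies on the minus strand at chr14:66027329-66077733, and Adam30 (ENSMUSG00000043468) on the plus strand at chr3:98160630-98164169. None of the 8 overlaps another gene of the count table, and the annotation places Gm10233, Gm26208, Gm45528 and Gm23898 on the opposite strand inside Adam2, Adam3 (both Gm26208 and Gm45528) and Adam32.

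Close copies limit one member. Of all 50-base windows of the Adam26a transcript, 36.4% occur also in another gene (Adam26b, Adam34 or Gm5347), and the coding sequences of Adam26a and Adam26b are 94.2% identical. The sources used here do not give how reads that map to several places were counted, so values of Adam26a are uncertain for that reason. The share was 2.04% for Adam3, with Gm45528, and 0 for the other 6.

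Library totals ran from 14382378 to 19118265 counts, and the batch label is the same for all. No label says that a group's libraries came from separate animals. The p-values therefore cover the spread between libraries only, and that spread may be technical. The first principal component, with 39.4% of the variance, separated the 100 mg/kg libraries from all others. Within that group library 3 was the odd one: its counts differed from libraries 1 and 2 with chi-square values of 12.2 and 8.06 per degree of freedom, where other pairs within groups had 1.59 to 3.07. Of 10 epididymis markers, Lcn8 and Spag11b were at 0 in every group, and their summed level was 3.9 to 8.96 CPM (each gene's counts scaled to library size with TMM factors), nearly all of it Rnase10. Adam7 and Adam28, the ADAM genes of the epididymis, had 0 to 3 counts in a group. Elongating spermatid markers summed to 18914 to 28490.3 CPM.

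In saline testes the members spanned a wide range of abundance. Levels between genes were compared per kilobase of exon (RPKM, from TMM-scaled CPM), as mean ± SD of 3 libraries. Adam5 (tMDC II) led at 530.1 ± 12.7 RPKM and ranked 60 of 15653 genes. Adam3 followed at 377 ± 6.34 and Adam32, a testis ADAM with no enzyme motif, at 270.1 ± 4.92. Adam2 stood at 196 ± 1.88 RPKM and rank 279. The 4 most abundant members all lacked the zinc motif.

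The other members were lower. Adam18 (tMDC III) had 62.4 ± 1.28 RPKM in saline and Adam24 (testase 1) 59.5 ± 1.7 RPKM, and their libraries overlapped, with 61 to 63.4 against 58.5 to 61.5, so the order of this pair does not exceed the spread. Adam30, a testis metalloprotease, had 31 ± 0.444 and Adam26a (testase 3) 25.8 ± 0.815 RPKM, at ranks 2084 and 2387 of 15653. No other neighbours in the order overlapped.

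At 50 mg/kg, 1 of the 8 genes, Adam3, passed the test. Adam3 had 1131, 1094 and 1106 CPM in the saline libraries and 1203, 1204 and 1214 CPM at 50 mg/kg. All 3 libraries of this dose lay above all 3 saline libraries. Adam3 rose by 0.12 ± 0.037 (log2 fold change ± SE, n = 3 against 3), an increase of 8.71%, with an adjusted p of 0.0244 by edgeR's quasi-likelihood test with Benjamini-Hochberg adjustment. That is 1 of 8 members higher and 0 lower, where 9.21% of the tested genes were higher, 8.02% lower and 17.2% called in either direction.

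The other 7 did not pass at 50 mg/kg. Adam18, with 144, 148 and 149.7 CPM in saline, had 153, 161 and 168 CPM at 50 mg/kg, a log2 fold change of 0.12 ± 0.049 with an adjusted p of 0.0831 by edgeR. Its libraries did not overlap between the groups either. Adam2 and Adam30 lay below saline in all 3 libraries, with log2 fold changes of -0.038 and -0.084 and adjusted p of 0.587 and 0.308 by edgeR. Libraries did not overlap for 4 of the 8 members, and for 37.6% of all tested genes. The median log2 fold change of the 8 was 0.06, beside -0.00056 over all genes tested. The Adam3 log2 fold change stayed at 0.11 to 0.12 under the settings that lost its call. There its adjusted p by edgeR was 0.0547 to 0.117 on leaving out saline library 2 or 3, library 3 at 200 mg/kg or any of those at 50 mg/kg, and 0.0604 with no filter on low counts.

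**Figure D1:**
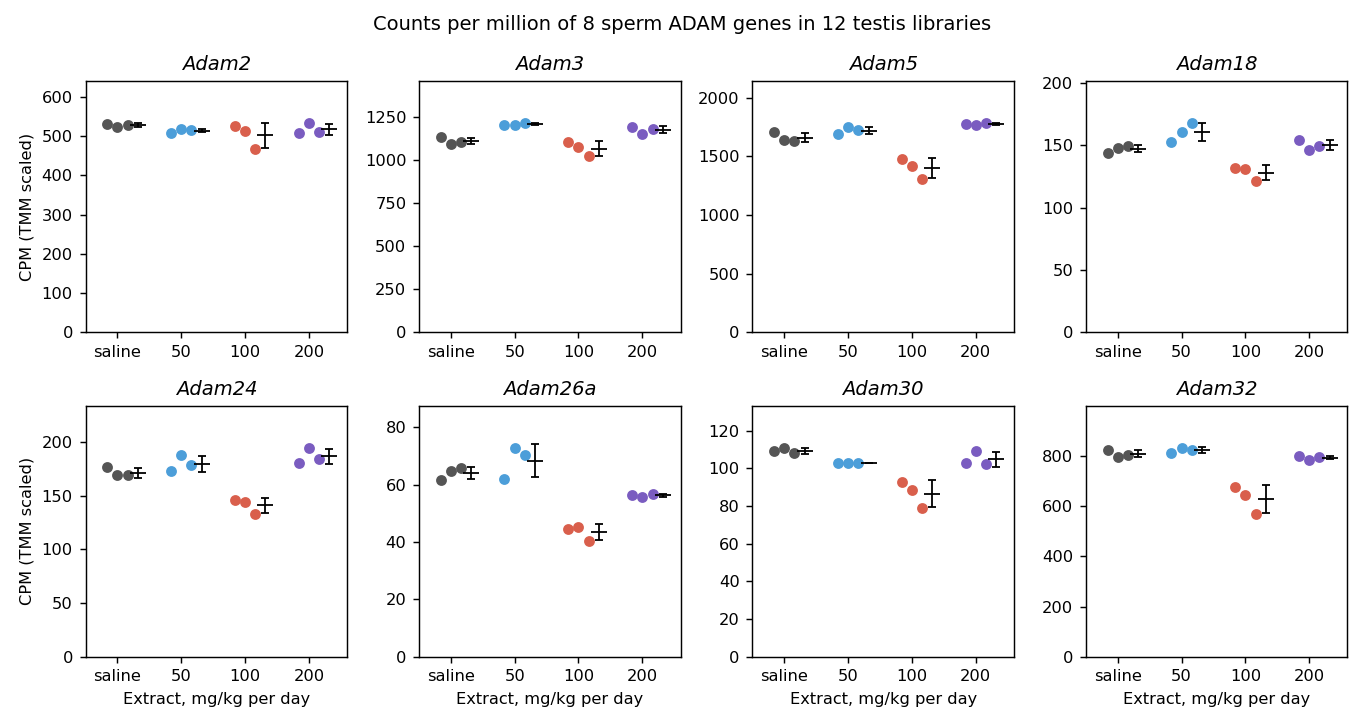
Level of each of the 8 genes in CPM (TMM-scaled, linear axes that differ between panels), with 1 point per library and, beside the points, the mean and SD of each group. The 100 mg/kg libraries are the lowest for Adam5, Adam18, Adam24, Adam26a, Adam30 and Adam32, while Adam2 and Adam3 overlap with saline.

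At 100 mg/kg, 6 of the 8 genes fell and 0 rose. Adam26a fell most, followed by Adam32, Adam30, Adam24, Adam5 and Adam18, while Adam2 and Adam3 did not pass. Of all tested genes 26.8% were lower and 25.6% higher at this dose and 52.4% were called in either direction, so a call was common. Libraries of saline and 100 mg/kg did not overlap for 6 members, and for 58.7% of all genes. The median of the 8 was -0.26 on the log2 scale, beside 0.0086 over all genes tested. In bulk tissue, fewer cells of a type and less RNA per cell cannot be told apart.

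All 3 genes with the zinc motif were among those that fell. Adam26a had 61.8, 64.8 and 65.7 CPM in saline and 44.7, 45.3 and 40.3 CPM at 100 mg/kg. Every 100 mg/kg library lay below every saline library. The log2 fold change was -0.56 ± 0.064, a difference of -32.2%, with an adjusted p of 1.28e-07 by edgeR. Adam30 had 109, 111 and 108 CPM in saline and 92.6, 88.3 and 78.9 CPM at 100 mg/kg, a log2 fold change of -0.34 ± 0.054 and an adjusted p of 1.51e-05 by edgeR. Adam24 had 177, 169 and 169 CPM in saline and 146, 144 and 133 CPM at 100 mg/kg, a log2 fold change of -0.28 ± 0.049 and an adjusted p of 3.58e-05 by edgeR. For these 2 genes, too, the groups did not overlap.

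Of the 5 genes without the motif, 3 fell. Adam32 had 825, 796 and 804 CPM in saline and 674, 645 and 567 CPM at 100 mg/kg, a log2 fold change of -0.36 ± 0.047 with an adjusted p of 6.7e-07 by edgeR. Adam5, the most abundant member, had 1705, 1640.4 and 1632 CPM in saline and 1475, 1419.7 and 1303 CPM at 100 mg/kg. All its treated libraries lay below all its saline libraries. Its log2 fold change was -0.25 ± 0.040, with an adjusted p of 1.59e-05 by edgeR. Adam18 had 132, 131 and 121 CPM at 100 mg/kg, below each of its saline libraries, a log2 fold change of -0.20 ± 0.049 with an adjusted p of 0.00118 by edgeR.

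Adam2 and Adam3, the members with the best known roles in fertilisation, were the exceptions. Adam2 had 532, 523 and 529.8 CPM in saline and 526, 513 and 467 CPM at 100 mg/kg, a log2 fold change of -0.074 ± 0.043 with an adjusted p of 0.151 by edgeR and a 95% interval of -0.16 to 0.014. Adam3 had 1103, 1072 and 1019 CPM at 100 mg/kg, a log2 fold change of -0.061 ± 0.037 with an adjusted p of 0.174 by edgeR and a 95% interval of -0.14 to 0.015. For both genes the groups overlapped. Both passed as lower when 100 mg/kg library 1 was left out (adjusted p of 0.0251 and 0.0358 by edgeR).

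Library 3 of the 100 mg/kg group held the lowest level of every member among all 12 libraries. Without it the same 6 genes passed, with log2 fold changes of -0.50 for Adam26a, -0.29 for Adam32, -0.27 for Adam30, -0.24 for Adam24, -0.19 for Adam5 and -0.16 for Adam18. Adam2 then stood at -0.018 and Adam3 at -0.024. When a trend of counts with exonic length was taken out of each library, all 8 members passed as lower at 100 mg/kg, where 23.0% of all genes did, with Adam2 at -0.18 and Adam3 at -0.15 (adjusted p of 0.000733 and 0.0012 by edgeR).

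**Figure D2:**
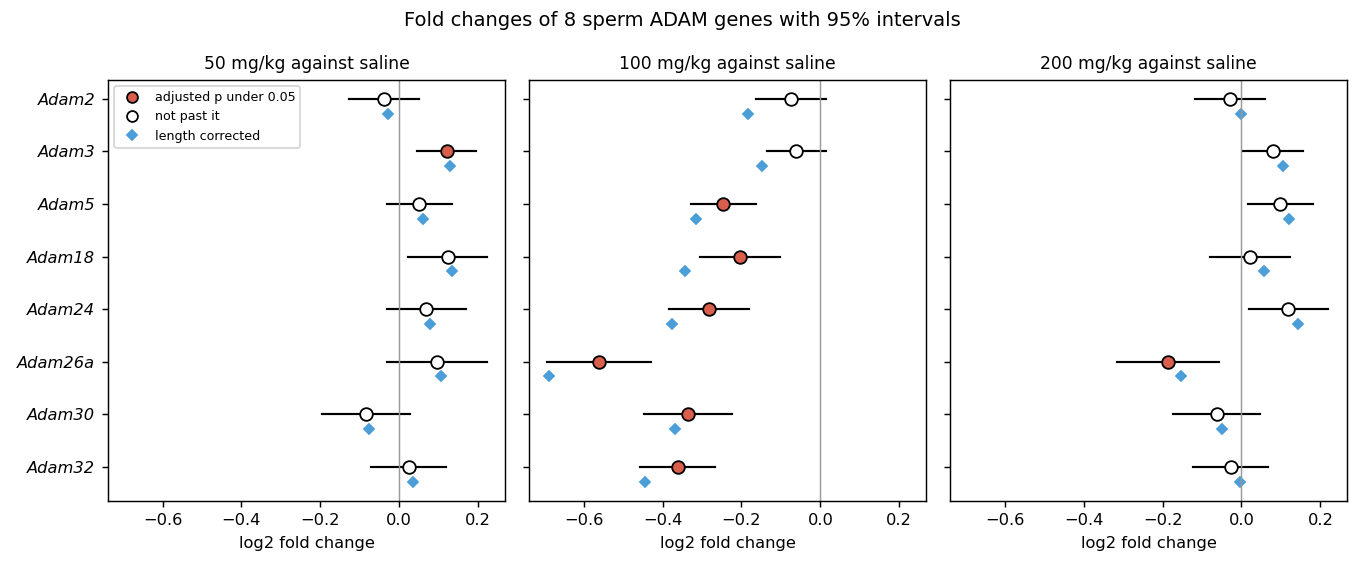
Log2 fold change against saline of each of the 8 genes at the 3 doses, as circles with 95% intervals from edgeR's quasi-likelihood fit (filled where the adjusted p was under 0.05), and as diamonds with the length correction. At 100 mg/kg the intervals of 6 genes lie below 0, with Adam26a lowest at -0.56, and those of Adam2 and Adam3 include 0.

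At 200 mg/kg, Adam26a was the only member that passed, and it was lower. It had 56.6, 55.7 and 56.8 CPM against 61.8, 64.8 and 65.7 CPM in saline, and the libraries did not overlap. The log2 fold change was -0.19 ± 0.063, a difference of -12.1%, with an adjusted p of 0.0398 by edgeR. One of 8 members was thus lower and 0 higher, where 8.30% of all tested genes were lower, 10.3% higher and 18.6% were called in either direction. This call was lost under 9 of 22 alternatives, among them the length correction (adjusted p of 0.0804 by edgeR), library size alone (0.0779) and leaving out saline library 2 (0.114) or 3 (0.136), library 3 at 50 mg/kg (0.0535) or any at 200 mg/kg (0.0774 to 0.106).

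Adam3, Adam5 and Adam24 lay above saline in all 3 libraries at 200 mg/kg but did not pass. Adam5 had 1778, 1765 and 1785 CPM, a log2 fold change of 0.10 ± 0.040 with an adjusted p of 0.0924 by edgeR. Adam24 had 181, 195 and 184 CPM, a log2 fold change of 0.12 ± 0.049 and an adjusted p of 0.096 by edgeR. Adam3 had 1189, 1152 and 1181 CPM, a log2 fold change of 0.081 ± 0.037 and an adjusted p of 0.135 by edgeR. With Adam26a, that made 4 of 8 members whose libraries did not overlap, and 39.2% of all genes did not. These 3 genes passed as higher with the length correction, where 11.1% of all genes did (adjusted p of 0.0382 for Adam3, 0.0298 for Adam5 and 0.0296 for Adam24 by edgeR) and when 100 mg/kg library 3 was left out (0.0122, 0.00169 and 0.0115). The median of the 8 was -0.0029, beside -0.0013 over all genes.

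The 3 comparisons above share the saline libraries, so the doses were also set against each other. From 50 to 100 mg/kg 7 members were lower, all but Adam2, where 26.9% of all genes were lower and 51.5% were called in either direction. Log2 fold changes ran from -0.18 ± 0.037 for Adam3 to -0.66 ± 0.064 for Adam26a, with adjusted p from 0.000436 to 1.15e-08 by edgeR. Adam2 had a log2 fold change of -0.036 ± 0.043 with an adjusted p of 0.507 by edgeR.

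From 100 to 200 mg/kg, a comparison that shares the 100 mg/kg libraries with the last, 7 members were higher, all but Adam2, where 27.8% of all genes were higher and 53.0% were called in either direction. Log2 fold changes ran from 0.14 ± 0.037 for Adam3 to 0.40 ± 0.049 for Adam24, with Adam26a at 0.37 ± 0.065. Adam2 had a log2 fold change of 0.045 ± 0.043 with an adjusted p of 0.394 by edgeR. With the length correction Adam2 passed in both of these comparisons as well (adjusted p of 0.00358 against 50 mg/kg and 0.000783 against 200 mg/kg by edgeR).

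The lowest and highest doses differed for 1 member. Adam26a was lower at 200 than at 50 mg/kg, with 56.6, 55.7 and 56.8 CPM against 62, 73 and 70.3, a log2 fold change of -0.28 ± 0.062 and an adjusted p of 0.00673 by edgeR. The adjusted p was 0.0678 and 0.0524 without 50 mg/kg library 2 or 3. Of all genes 2.51% were lower and 5.05% were called in either direction. Along dose as a number, Adam26a also had the only slope that passed, -0.14 ± 0.030 per 100 mg/kg with an adjusted p of 0.00184 by edgeR, where 6.14% of all genes sloped down and 14.0% were called. Its levels did not follow the dose order: the mean was 64.1 CPM in saline and 68.4, 43.4 and 56.3 CPM at rising doses.

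Adam26b, the close copy of Adam26a, was set beside it. Adam26b had a mean of 19.4 ± 1.31 CPM in saline, 20.8 ± 1.84 at 50 mg/kg, 21.3 ± 1.26 at 100 mg/kg and 14.9 ± 1.57 at 200 mg/kg. Its log2 fold change against saline was 0.14 ± 0.090 at 100 mg/kg, with an adjusted p of 0.204, and -0.38 ± 0.095 at 200 mg/kg, with an adjusted p of 0.00664 by edgeR. With the copies counted as 1 gene, a setting added after seeing the data, the log2 fold change was -0.37 at 100 mg/kg and -0.23 at 200 mg/kg, with adjusted p of 2.63e-06 and 0.00299 by edgeR. From 100 to 200 mg/kg the value of the merged copies was 0.14, with an adjusted p of 0.0315 by edgeR, against 0.37 for Adam26a alone. Whether the 2 genes differ in their change was not tested.

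Ratios of 2 members within a library need no scaling between libraries. There were 8.06 to 8.61 counts of Adam2 for each count of Adam26a in saline, 7.09 to 8.21 at 50 mg/kg, 11.3 to 11.8 at 100 mg/kg and 8.97 to 9.6 at 200 mg/kg. The 100 mg/kg libraries thus lay above all others. Among the 28 pairs this one had the widest range of group means (0.62 on the log2 scale), and Adam5 with Adam24 had the narrowest (0.057). The widest pair rests on Adam26a, whose counts are uncertain. The ratio of Adam3 to Adam32 was 1.37 to 1.38 in saline, 1.45 to 1.49 at 50 mg/kg, 1.64 to 1.8 at 100 mg/kg and 1.47 to 1.49 at 200 mg/kg. Counts of Adam2 per count of Adam3 overlapped between saline and 100 mg/kg, with 0.471 to 0.479 in saline and 0.458 to 0.479 at 100 mg/kg. At 50 and 200 mg/kg they were 0.423 to 0.43 and 0.427 to 0.464, wholly below saline. Adam2 made up 11.5 ± 0.122% of the 8 genes' counts in saline and 12.6 ± 0.07% at 100 mg/kg (SD, n = 3), and Adam3 24.1 ± 0.0855% and 26.7 ± 0.562%. These ratios and shares were not tested.

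**Figure D3:**
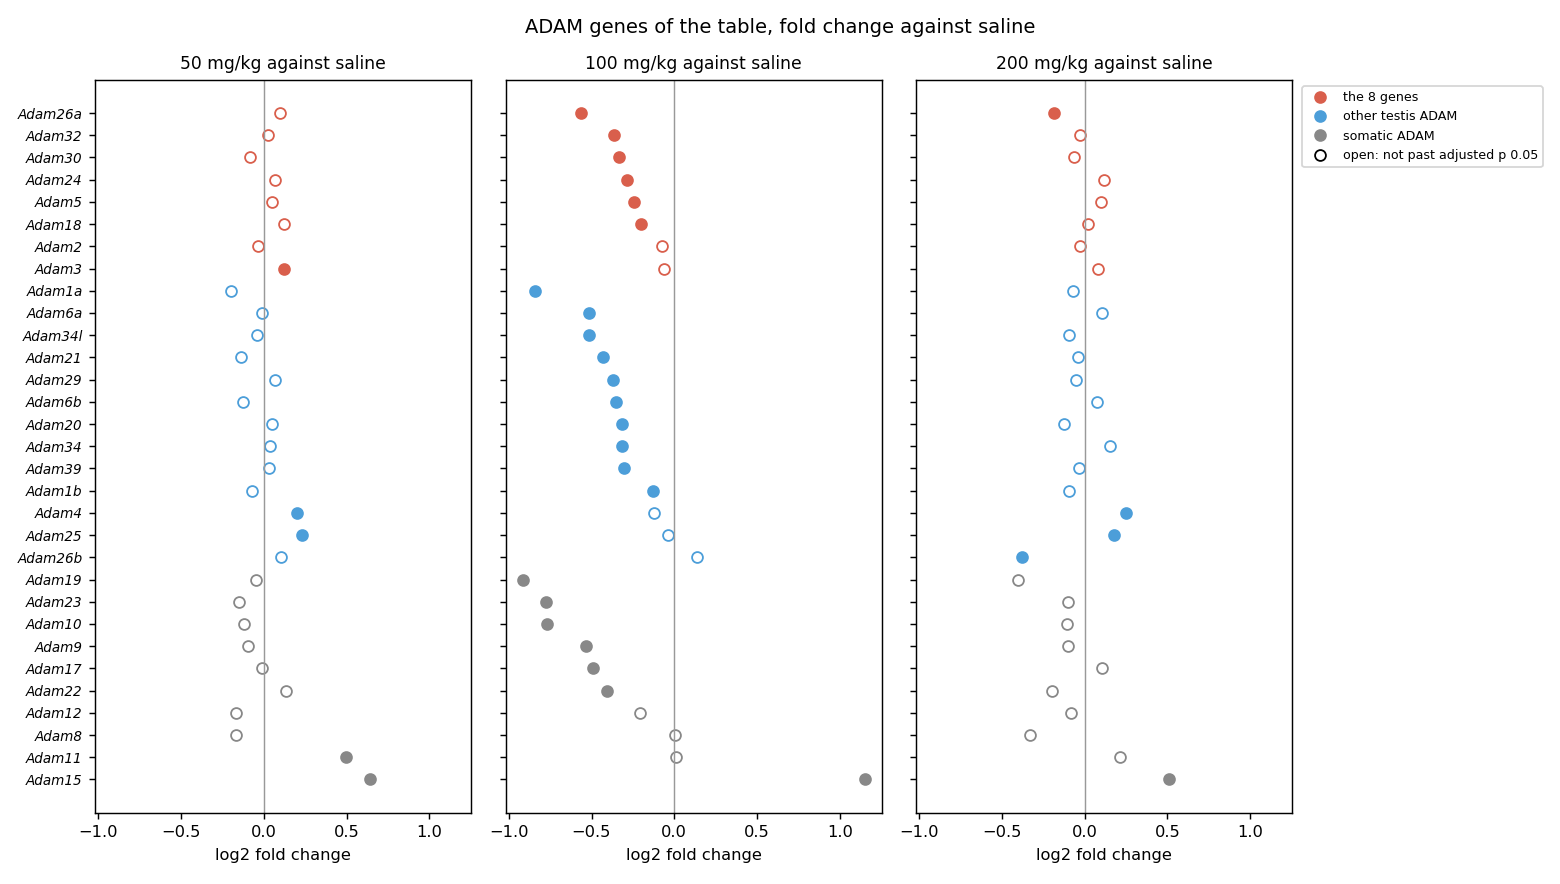
Log2 fold change against saline of all tested ADAM genes at the 3 doses, grouped as the 8 genes, the other 13 testis ADAM genes and 10 somatic ADAM genes. Filled points passed an adjusted p of 0.05 and open points did not. At 100 mg/kg 6 of the 8, 10 of the 13 and 6 of the 10 lie on the lower side and passed. Of all tested genes 26.8% did.

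Other ADAM genes were mostly lower at 100 mg/kg as well, where 26.8% of all tested genes were lower and 25.6% higher. Of 13 other testis ADAM genes, 10 fell and 0 rose, with a median log2 fold change of -0.32. They included Adam1a, the partner of ADAM2 in fertilin in the endoplasmic reticulum (-0.84 ± 0.10, adjusted p of 4.82e-06 by edgeR), and Adam6a (-0.51 ± 0.060, adjusted p of 1.78e-07 by edgeR). Adam1b, the partner of ADAM2 on sperm, fell by less (-0.13 ± 0.043, adjusted p of 0.014 by edgeR). Of 10 somatic ADAM genes 6 fell, among them Adam10 (-0.77 ± 0.077) and Adam17 (-0.49 ± 0.096), both sheddases, and Adam15 rose (1.15 ± 0.15). With the length correction 12 of the 13 testis ADAM genes were lower (median -0.44). Of the 10 somatic genes 4 were then lower and 1 higher (median -0.18, against -0.45 without it). Under this correction 23.0% of all genes were lower and 24.5% higher. At the other doses 2 testis ADAM genes rose, Adam25 (0.23 ± 0.055 at 50 mg/kg and 0.18 ± 0.055 at 200 mg/kg) and Adam4 (0.20 ± 0.054 and 0.25 ± 0.054), and Adam26b fell at 200 mg/kg. Of the somatic genes Adam15 rose at both (0.64 ± 0.16 and 0.51 ± 0.16), Adam11 rose at 50 mg/kg (0.50 ± 0.088) and 0 fell. Of all genes 9.21% were higher at 50 mg/kg and 10.3% at 200 mg/kg.

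Of 20 genes for ADAM maturation and sperm migration, 9 rose and 4 fell at 100 mg/kg, with a median of 0.15. Of all tested genes 25.6% were higher and 26.8% lower at this dose. With the length correction 8 of the list were higher and 6 lower, with a median of 0.058. Under it 24.5% of all genes were higher and 23.0% lower. The 4 that fell without the correction are chaperones of the endoplasmic reticulum: Canx (-0.62 ± 0.056), Hspa5 (-0.54 ± 0.057), Clgn (-0.44 ± 0.049) and Pdia3 (-0.21 ± 0.039). Calr, another such chaperone of the list, did not pass (0.022 ± 0.036, adjusted p of 0.633 by edgeR). Clgn, the testis chaperone calmegin that fertilin needs, had 885 ± 18.8 CPM in saline and 654 ± 64.2 CPM at 100 mg/kg. Cmtm2a (1.28 ± 0.11), Ly6k (0.88 ± 0.10), Pcsk4, a sperm proprotein convertase (0.55 ± 0.061), and Pmis2 (0.54 ± 0.087) were among those that rose. Calr3 (calsperin, needed for ADAM3 in mice) and Pdilt did not pass at this dose, with 0.073 ± 0.046 and 0.06 ± 0.044. At 50 mg/kg 2 of the list rose and 4 fell, where 9.21% of all genes were higher and 8.02% lower. At 200 mg/kg 3 rose and 5 fell, where 10.3% of all genes were higher and 8.30% lower. Tex101, a sperm protein needed for ADAM3, was lower at both doses (-0.23 ± 0.052 and -0.30 ± 0.052).

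Markers of germ cell stages also differed at 100 mg/kg, beside the members. At this dose 26.8% of all tested genes were lower and 25.6% higher. Of 10 spermatocyte markers 7 fell and 1 rose (median -0.38), with Sycp1 at -1.56 ± 0.057. Their summed level was 7227 to 7296 CPM in saline and 7659 to 8034 CPM at 100 mg/kg, since the abundant Ldhc rose. Of 11 round spermatid markers 10 rose (median 0.27), and of 10 elongating spermatid markers 7 rose and 1 fell (median 0.31). The summed levels were 2571 to 2584 CPM against 2922 to 3237 CPM for round and 21698 to 22119 CPM against 23678 to 28490.3 CPM for elongating spermatids. Of 9 genes for sperm and egg fusion 6 rose, led by Tmem95 (0.87 ± 0.072), with a list median of 0.30. The length correction changed the spermatid lists: 2 elongating markers were then higher and 4 lower (median 0.041), and 6 round markers were higher and 1 lower (median 0.15). Under it 8 spermatocyte markers were lower and 1 higher (median -0.43), and 5 fusion genes were higher (median 0.13). With this correction 23.0% of all genes were lower and 24.5% higher. Among somatic cells, 5 of 12 Sertoli markers fell and 1 rose at 100 mg/kg (6 lower and 0 higher with the length correction). At 50 and at 200 mg/kg 6 fell, where 8.02% and 8.30% of all genes were lower. The Sertoli markers summed to 1509.6 to 1536 CPM in saline, 1220 to 1286 at 50 mg/kg, 1369.9 to 1501 at 100 mg/kg and 1119.7 to 1137 at 200 mg/kg. Of 8 Leydig markers 5 fell and 0 rose at 100 mg/kg (median -0.27), and 7 fell with the length correction (median -0.46). Of 7 peritubular and endothelial markers 3 fell and 0 rose at this dose. Of 8 macrophage markers 2 fell and 2 rose, near the shares of all genes. The part of these shifts in the values of the ADAM genes was not tested.

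**Figure D4:**
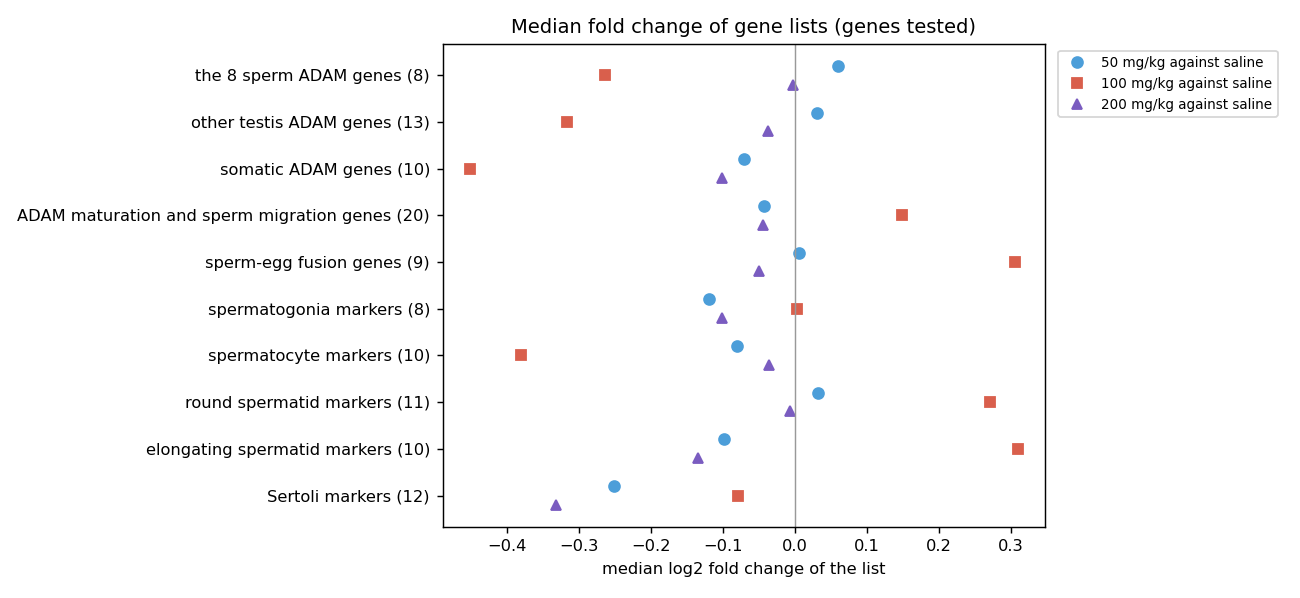
Median log2 fold change against saline of the gene lists shown, at the 3 doses, with the number of genes tested in brackets. Leydig, peritubular and endothelial, macrophage and epididymis markers are not drawn. At 100 mg/kg the 8 genes (-0.26), the other testis ADAM genes (-0.32) and the spermatocyte markers (-0.38) lie below 0, and the round (0.27) and elongating (0.31) spermatid markers lie above it. These values are without the length correction, which lowers the last 2 medians to 0.15 and 0.041.

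Genes with the most similar profiles were found for the 7 members that passed against saline at some dose, among 13639 candidates. Likeness was the root mean square difference of log2 CPM, each gene centred on its own mean, over the 12 libraries. Nearest were Rufy3 to Adam3 (0.0255), Ptbp2 to Adam5 (0.0231), Hspa13 to Adam18 (0.0436), Tbl1xr1 to Adam24 (0.0331), Gpt2 to Adam26a (0.0562), Cfap69 to Adam30 (0.0319) and Elf2 to Adam32 (0.0245). For comparison, the SD of the members themselves over the libraries was 0.0757 (Adam3) to 0.259 (Adam26a). No member was among the 3 nearest genes of another.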

How the data were processed

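Libraries were made from testis RNA with a stranded polyA kit, per the labels' protocols. The deposited table holds whole-number counts per gene, made by the authors. Tools named in the submitters' processing notes are STAR, Trimmomatic, DESeq2 and featureCounts, with builds mm10 and GRCm38. Their roles and versions, the annotation and the settings for strand and multi-mapping reads were not given in the sources used here. Libraries were grouped by title. Of 21959 identifiers 21851 had a symbol. Sequences, positions and exonic lengths came from GENCODE M21 on GRCm38.

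Counts were fitted in R 4.3.3 by edgeR 4.0.16 (TMM factors after filterByExpr by group, robust quasi-likelihood fit of the 4 groups, 8 residual degrees of freedom), with Benjamini-Hochberg adjustment over all 15682 genes and a threshold of 0.05. The standard error was the log2 fold change divided by the square root of F. The common biological coefficient of variation was 5.01%. In counts simulated for 50 mg/kg against saline over 15682 genes, changes of 1.2-fold were recovered in 30% of cases and of 1.5-fold in 68%, with 5.3% false calls. The changed genes were drawn at random from all those tested, at any level, so these are not rates for the 8 members. All 8 members were named whatever their result, and other list genes by smallest p or as close copies. Some list genes named for their role beside a member were chosen with their values known. The members and lists were chosen with earlier results of these data known. Alternatives used DESeq2 1.42.0, limma 3.58.1 (voom with sample weights), library size alone, RLE factors, other filters on counts, fits of 2 groups, replicate number as a block, dose rank, a length correction (lowess, span 0.3) and leaving out each library.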

Additional observations from a re-analysis of the deposited data

How the results depend on the processing

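The 6 calls at 100 mg/kg against saline kept their direction and side of the threshold in all 22 alternatives, and so did the 7 calls of 100 against 50 mg/kg and of 200 against 100 mg/kg. Of 1232 values of single members under an alternative, 18 lost a call, 29 gained one and 7 changed sign. With library size alone, 2 members were called at 50 mg/kg and 0 at 200 mg/kg, among 2637 and 2836 genes called in all. Of the genes so called at 50 mg/kg 66.7% were higher, against 53.5%. Without a count filter edgeR called 0 members at 50 mg/kg, where DESeq2 with the filter called 1. With the filter, 2 members at 50 mg/kg and 4 at 200 mg/kg had an unadjusted p under 0.05 by edgeR. The share of all genes under that unadjusted limit was not computed, and 17.2% and 18.6% passed the adjusted one.

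With limma voom, 4159 genes were called at 50 mg/kg, 1631 for 200 against 50 mg/kg and 3576 along dose, against 2701, 792 and 2190. It called 2, 4 and 3 members at 50 mg/kg, at 200 mg/kg and along dose. Its total at 200 mg/kg against saline is not given here, and the main fit called 18.6% of all genes there. Fits of 2 groups called 4439 genes at 200 mg/kg against 2914, and 1563 for 200 against 50 mg/kg. They called 2 and 4 members at 50 and 200 mg/kg. Their total at 50 mg/kg is not given here, and the main fit called 17.2% of all genes there. The length correction called 2 and 3 members at 50 and 200 mg/kg, where it called 20.7% and 21.1% of all genes. Dose rank called 2 members along dose. Its own total over all genes is not given here, and the main fit called 14.0%.

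Leaving out a library gave 1714 to 4013 genes at 50 mg/kg, 1941 to 4181 at 200 mg/kg, 462 to 1690 for 200 against 50 mg/kg and 1361 to 3414 along dose, and 0 to 2, 0 to 4, 0 to 1 and 1 to 2 members. Values near 0 changed sign: Adam2 for 200 against 50 mg/kg with library size alone (-4.6e-05) and Adam5 along dose with dose rank (-0.00024). So did values on leaving out a library, which ranged for Adam2 from -0.014 to 0.024 (200 against 50 mg/kg), from -0.078 to 0.017 (100 against 50 mg/kg) and from -0.011 to 0.087 (200 against 100 mg/kg), for Adam30 from -0.010 to 0.039 (200 against 50 mg/kg) and for Adam18 from -0.0027 to 0.039 (200 mg/kg against saline). The cause was not tested.

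Same-numbered libraries of different groups did not deviate together (correlations of -0.129 to 0.0482 over 18 pairs, 0 over 0.1). That gave no sign of a pairing by number, though with 3 libraries in a group it cannot exclude one. With replicate number as a block, 0 members were called at 200 mg/kg, and 1 and 6 at 50 and 100 mg/kg. Genes called in all were then 2718 at 200 mg/kg, and 2473 and 8095 at 50 and 100 mg/kg. In simulated counts for 50 mg/kg against saline, 30% of 1.2-fold changes in genes drawn at random were recovered, which is no rate for the members.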
